A study of Mus musculus with 2 samples.

Results

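The acute phase and epithelial defense genes described here are *Saa1*, *Saa2*, *Saa3*, *Lcn2*, *Orm1*, *Lbp*, *Cd14*, *Lrg1*, *Chi3l1* and *Cp*. They were chosen by gene symbol as acute phase genes known to rise when the mammary gland involutes, with earlier results of these data known. All 10 were found among the 25810 genes with a symbol in the deposited files. The study compared mammary epithelial cells (MECs) of wild type (WT) mice with those of *Igfbp7*-/- mice, in which the first coding exon of *Igfbp7* is deleted from the germline, so that every tissue lacks it. The cells came from inguinal glands on lactation day 3 and were depleted of lineage positive cells with magnetic beads. The methods name CD45, CD31 and Ter119 as the depleted markers, and the labels list CD35 where the methods have CD31. The labels also give the background of both groups as C57BL/6, whereas the methods state that the knockout was made on CD1. Each genotype had 1 library, the number and age of the mice behind it were not found in the sources used here, and the differences below therefore have no replicate check and no test.

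The acute phase response is the change in secreted proteins that follows infection or tissue damage. Interleukin 6 family cytokines act on it through STAT3, interleukin 1 and tumor necrosis factor through NF-κB, and both routes work together with the C/EBP transcription factors. The liver is the main source, but epithelia make many of the same proteins locally. In the mammary gland several of them are secreted into milk or increase after weaning, when milk stasis starts involution and STAT3 is activated.

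Values are read counts, counts scaled by the authors to the depth of each library (RPM) and RPM per kilobase of transcript (RPKM). Where a pair of values is given, WT comes first and *Igfbp7*-/- second. The libraries had 34327854 mapped reads in WT and 35016847 in *Igfbp7*-/-, of which 82.4% and 72.3% fell on listed genes. *Igfbp7* itself was at 152 RPM (5224 reads) in the WT library and at 1.06 RPM (37 reads) in the knockout library, in the order that the labels give. Ratios of *Igfbp7*-/- to WT were calculated from RPM with 0.1 RPM added to both values, and a gene was called higher or lower at a ratio of 1.5, the minimum used in the study. The intervals beside the ratios are 95% Clopper-Pearson intervals computed on read pairs, and they cover the counting of reads only.

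Of the 10 genes, 9 were called higher in *Igfbp7*-/- MECs and none was called lower. Of all 14026 genes tested, that is genes that reached 1 RPM in either library, 21.4% were called higher and 23% lower. The share called higher was 20.9% among genes of 10 to 100 RPM and 19.9% among genes of at least 100 RPM, by the library with more reads. The remaining gene was *Cd14*, with a ratio of 1.44. The median log2 ratio was 1.29 over the 10 genes and 0.035 over all genes, and 6 of the 10 were higher by at least 2 times, against 9.64% of all genes. Together the 10 transcripts made up 2206 RPM of the WT library and 4618 RPM of the *Igfbp7*-/- library, a ratio of 2.09. In RNA from a mixed cell preparation, a different number of cells of a type and a different amount of RNA per cell cannot be told apart. *Saa2*, *Saa3*, *Chi3l1*, *Cp* and *Cd14* are also on the involution list of the study.

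**Figure D1:**
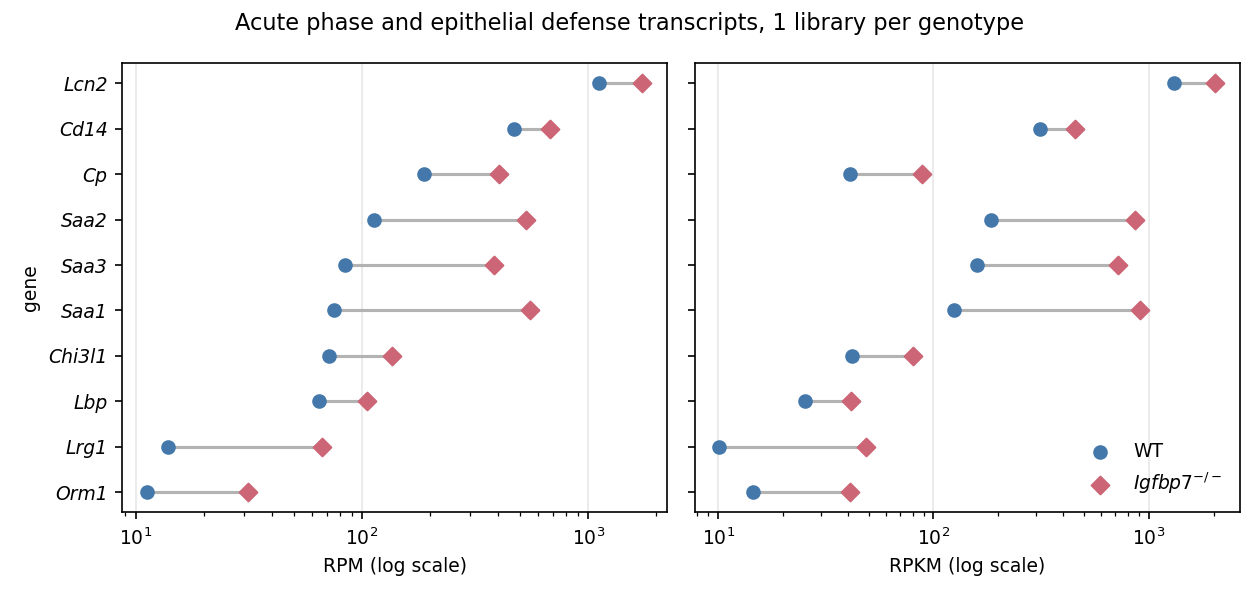
Level of each of the 10 transcripts in the WT library (blue circles) and the *Igfbp7*-/- library (red diamonds), in RPM on the left and in RPKM on the right, both on log axes. Every red diamond lies to the right of its blue circle, and the gap is widest for the *Saa* genes and *Lrg1*.

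The serum amyloid A genes encode small apolipoproteins of high density lipoprotein that are among the most strongly induced acute phase proteins, and *Saa3* is the form made mainly outside the liver. In the NCBIM37 (mm9) build they lie within 42317 bp of chromosome 7. *Saa3* (chr7:53967368-53971046) and *Saa1* (chr7:53995871-53998350) are on the minus strand, and *Saa2* (chr7:54007203-54009684) is on the plus strand. *Saa1* and *Saa2* are near copies of each other. Their coding sequences of 369 bases were identical at 351 positions (95.1%), whereas *Saa1* and *Saa3* were identical at 270 (73.2%). The most divergent stretch of 30 coding bases is shown because it is where *Saa1* and *Saa2* differ most. It lies in exon 3 of 4, at chr7:53996707-53996736 for *Saa1*, chr7:54008816-54008845 for *Saa2* and chr7:53968040-53968069 for *Saa3* (GENCODE M1 transcripts, transcript strand). Capitals mark the bases at which *Saa1* and *Saa2* differ from each other and at which *Saa3* differs from *Saa1*.
Saa1: tgacatgaaggaagctAActggaaaAaCTC
Saa2: tgacatgaaggaagctGGctggaaaGaTGG
Saa3: tgacatgaagAaagctaactggaaaaactc
*Saa1* and *Saa2* differed at 6 of these bases, while *Saa3* differed from *Saa1* at 1. Of the 571 windows of 35 bases in the *Saa1* transcript, 397 (69.5%) matched the *Saa2* transcript with at most 3 mismatches, the number allowed by the authors. Of the 531 windows of 75 bases, 115 (21.7%) did. The division of reads between *Saa1* and *Saa2* is therefore uncertain, and their sum is less affected.

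*Saa1* had 2589 reads in WT (75.4 RPM, 124 RPKM) and 19373 reads in *Igfbp7*-/- (553 RPM, 911 RPKM). This was the highest ratio of the 10 genes, 7.33 times (log2 ratio 2.87, counting interval 2.79 to 2.96). *Saa2* had 3891 reads in WT (113 RPM, 186 RPKM) and 18520 reads in *Igfbp7*-/- (529 RPM, 867 RPKM), a ratio of 4.66 (log2 ratio 2.22, 2.15 to 2.29). *Saa3* had 2894 reads in WT (84.3 RPM, 159 RPKM) and 13350 reads in *Igfbp7*-/- (381 RPM, 718 RPKM), a ratio of 4.52 (log2 ratio 2.18, 2.09 to 2.26). Thus *Saa1* was the lowest of the 3 genes per length in WT and the highest in *Igfbp7*-/-. Ranked by ratio among the 14026 genes, *Saa1* was number 61, *Saa2* number 156 and *Saa3* number 169.

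Of all reads on the 3 genes, *Saa1* took 27.6% in WT (counting interval 26.3 to 28.9%) and 37.8% in *Igfbp7*-/- (37.2 to 38.4%). *Saa2* took 41.5% (40.1 to 42.9%) and 36.1% (35.6 to 36.7%), and *Saa3* took 30.9% (29.6 to 32.2%) and 26.1% (25.5 to 26.6%). The share of *Saa1* was thus higher in *Igfbp7*-/- and those of *Saa2* and *Saa3* lower, by more than the counting of reads accounts for. The intervals do not cover the uncertain division of reads between similar genes. Of the 35-base windows of *Saa1*, 13.7% also matched *Saa3*. *Saa1* and *Saa2* summed, which sets aside the division between them, had 189 RPM in WT and 1082 in *Igfbp7*-/-, a ratio of 5.73. *Saa4*, the fourth gene of the cluster, which is expressed constitutively in liver, had 0 reads in WT, a count that allows up to 0.0874 RPM, and 8 reads (0.228 RPM) in *Igfbp7*-/-.

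The carriers and binding proteins differed more widely among themselves. *Lrg1* (chr17:56259103-56261369, minus strand), which encodes a leucine-rich glycoprotein that modulates TGF-β signaling in endothelial cells, had 478 reads in WT (13.9 RPM, 10.1 RPKM) and 2340 reads in *Igfbp7*-/- (66.8 RPM, 48.7 RPKM). Its ratio of 4.77 (log2 ratio 2.25, counting interval 2.06 to 2.47) was similar to those of *Saa2* and *Saa3*, from a WT level more than 10 times lower per length. *Orm1* (chr4:63005594-63009197, plus strand) encodes orosomucoid, a carrier of small molecules in plasma. It had 385 reads in WT (11.2 RPM, 14.6 RPKM) and 1100 reads in *Igfbp7*-/- (31.4 RPM, 40.9 RPKM), a ratio of 2.79 (log2 ratio 1.48, 1.25 to 1.73). Its near copy *Orm2*, identical at 561 of 624 coding bases (89.9%), had 54 and 236 reads (1.57 and 6.74 RPM), and both summed had 12.8 and 38.2 RPM, a ratio of 2.98. *Orm3* had 43 reads in WT and 34 in *Igfbp7*-/- (1.25 and 0.971 RPM) and was not called. *Cp* (chr3:19857054-19909145, plus strand) encodes ceruloplasmin, the copper protein that oxidizes iron for export. It had 6450 reads in WT (188 RPM, 41.2 RPKM) and 14160 reads in *Igfbp7*-/- (404 RPM, 88.6 RPKM), a ratio of 2.15 (log2 ratio 1.11, 1.05 to 1.17).

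*Chi3l1* and *Lcn2* are made by epithelial cells and by leukocytes. *Chi3l1* (chr1:136078753-136086758, plus strand), a chitinase-like lectin without chitinase activity, had 2455 reads in WT (71.5 RPM, 42.0 RPKM) and 4776 reads in *Igfbp7*-/- (136 RPM, 80.0 RPKM), a ratio of 1.91 (log2 ratio 0.93, counting interval 0.83 to 1.03). *Lcn2* (chr2:32240153-32243317, minus strand) encodes lipocalin 2, which withholds iron from bacteria by binding their siderophores. It was the most abundant of the 10 transcripts in both libraries, with 38265 reads in WT (1115 RPM, 1307 RPKM) and 60675 reads in *Igfbp7*-/- (1733 RPM, 2031 RPKM). Its ratio of 1.55 (log2 ratio 0.64, 0.61 to 0.66) was just above the minimum. Among all genes *Lcn2* ranked number 51 by RPM in WT and number 28 in *Igfbp7*-/-.

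*Lbp* and *Cd14* belong to lipopolysaccharide recognition, and *Cd14* had the lowest ratio of the 10 genes. *Lbp* (chr2:158132229-158158588, plus strand) encodes the protein that transfers lipopolysaccharide to CD14, and CD14 hands it to the receptor TLR4 with its partner MD-2. *Lbp* had 2207 reads in WT (64.3 RPM, 25.4 RPKM) and 3677 reads in *Igfbp7*-/- (105 RPM, 41.5 RPKM), a ratio of 1.63 (log2 ratio 0.71, counting interval 0.60 to 0.82). *Cd14* (chr18:36884728-36886390, minus strand) had 16129 reads in WT (470 RPM, 314 RPKM) and 23722 reads in *Igfbp7*-/- (677 RPM, 453 RPKM). Its log2 ratio was 0.53 (0.49 to 0.57), below the minimum of 1.5 times over the whole interval. When the counts were scaled to the listed reads without rRNA, snRNA and snoRNA, which made up a smaller share of the *Igfbp7*-/- library, the log2 ratio of *Cd14* was 0.73 and passed it. This scaling was chosen after the data were seen.

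**Figure D2:**
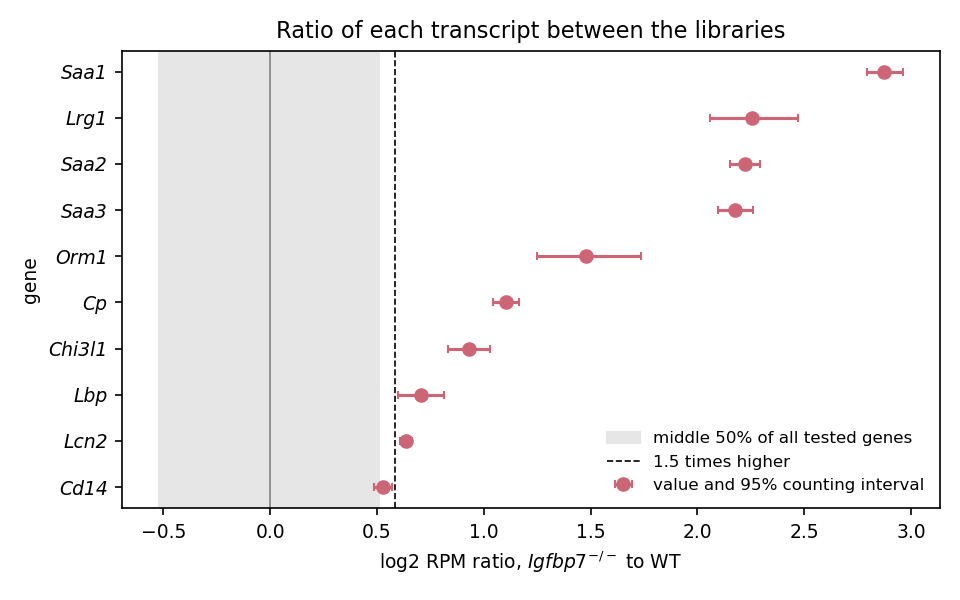
Log2 ratio of *Igfbp7*-/- to WT for each transcript (points) with its 95% counting interval (bars). The dashed line marks 1.5 times and the grey band the middle 50% of all tested genes. The values run from 0.53 for *Cd14* to 2.87 for *Saa1*, and *Cd14* is the only point left of the dashed line.

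The 10 genes contributed unequally to the difference in their sum. Of the 2411 RPM that *Igfbp7*-/- had above WT, the 3 *Saa* genes made up 49.4% and *Lcn2* 25.6%. The *Saa* genes had 273 RPM in WT, 12.4% of the sum, and 1463 RPM in *Igfbp7*-/-, 31.7% of the sum. *Lcn2* went from 50.5% to 37.5% of the sum and *Cd14* from 21.3% to 14.7%, although both had more reads in *Igfbp7*-/-. Without the *Saa* genes the ratio of the sums was 1.63. Per length, *Cd14* was second to *Lcn2* in WT, while in *Igfbp7*-/- all 3 *Saa* genes stood between them. The range of levels also narrowed, since the highest RPKM was 129 times the lowest in WT and 49.7 times in *Igfbp7*-/-.

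**Figure D3:**
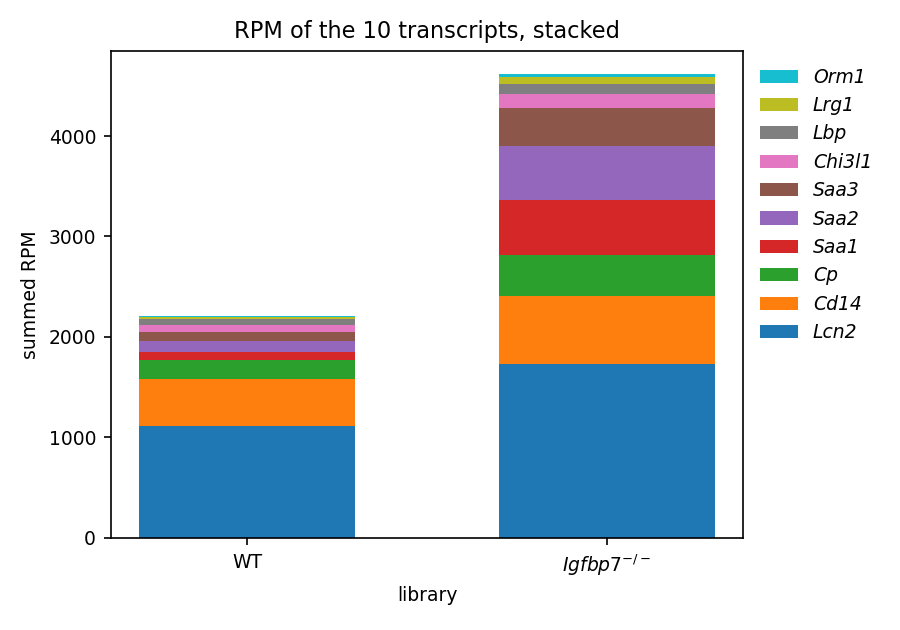
Summed RPM of the 10 transcripts in each library, stacked by gene. The bars reach 2206 RPM in WT and 4618 in *Igfbp7*-/-, and the 3 *Saa* segments grow from 273 to 1463 RPM.

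The promoters of 6 of the 10 genes, *Saa1*, *Saa2*, *Saa3*, *Lcn2*, *Cp* and *Lrg1*, were searched for motifs of the acute phase transcription factors in the 250 bases before the start site (RefSeq, GRCm38.p6), on both strands. The motifs were TTGCNNAA for C/EBP, TTCNNNGAA for STAT and the NF-κB consensus. The C/EBP motif occurred in all of these but *Lrg1*, against 9.57% of 32536 promoters. The STAT motif and the NF-κB consensus occurred in none of the 6 and in 7.04% and 7.28% of all promoters. A match to such a short motif is a description of the sequence, not a binding site. Only exact matches in these 250 bases were sought, so a motif without a match does not mean that the factor has no site. Each match is shown within a stretch of 30 bases because all 3 *Saa* genes hold this motif. The matched bases are in capitals on the strand of the gene, and in *Saa3* and *Cp* they match in the reverse orientation.
Saa1, chr7:46743144-46743173: ctgtgctcccaTTGCACAAtgagggagaat
Saa2, chr7:46751639-46751668: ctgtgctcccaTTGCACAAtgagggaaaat
Saa3, chr7:46715757-46715786: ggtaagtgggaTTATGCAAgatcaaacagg
Lcn2, chr2:32387937-32387966: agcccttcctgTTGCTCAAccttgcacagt
Cp, chr3:19957168-19957197: attagttactcTTTTGCAAcattaaattgt
The *Saa1* and *Saa2* promoters were near copies, with 238 of 250 bases identical (95.2%), and thus do not count as separate occurrences.

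Of the C/EBP genes, *Cebpb* and *Cebpd* were called higher in *Igfbp7*-/-, *Cebpd* just above the minimum at a ratio of 1.54. *Cebpa* (26.6 and 29.4 RPM, log2 ratio 0.14) was not called. *Cebpb* had 58.0 RPM in WT and 113 in *Igfbp7*-/- (log2 ratio 0.97), and *Cebpd* had 92.9 and 143 RPM (log2 ratio 0.62). Of the 40 tested genes in a list of 43 cytokines, receptors and transcription factors that regulate acute phase transcription, 9 were called higher (22.5%, against 21.4% of all genes) and 12 lower (30%, against 23%), with a median log2 ratio of -0.0024. Of the 7 cytokines on the list, *Il6*, *Il1a*, *Il1b*, *Tnf* and *Osm* were called lower and *Lif* and *Il11* higher. *Il6* had 260 RPM in WT and 55.9 in *Igfbp7*-/- (log2 ratio -2.22), and *Il1b* had 53.2 and 9.97 RPM (-2.40). *Osmr*, the oncostatin M receptor, was lower as well (528 and 297 RPM, log2 ratio -0.83), whereas *Lif* was higher (35.6 and 63.7 RPM, log2 ratio 0.84).

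In the STAT3 pathway, *Stat3*, *Il6st*, *Socs3* and *Lifr* differed by less than 1.5 times, whereas the kinase gene *Tyk2* was called higher. *Stat3* had 427 RPM in WT and 471 in *Igfbp7*-/- (log2 ratio 0.14), *Il6st*, the common signaling receptor, had 456 and 448 RPM (-0.024), and *Socs3*, a STAT3 target that limits it, had 127 and 114 RPM (-0.15). *Lifr* had 201 and 143 RPM (-0.48). Among NF-κB genes, *Nfkbiz*, a nuclear cofactor needed for *Lcn2* induction, was higher (247 and 490 RPM, log2 ratio 0.99), and *Nfkb1*, a subunit of the factor itself, was lower (304 and 164 RPM, log2 ratio -0.89). *Chuk* (30.3 and 55.5 RPM, log2 ratio 0.87) and *Ikbkg* (13.6 and 22.1 RPM, log2 ratio 0.69) were also called higher. *Rela*, *Nfkb2*, *Nfkbia* and *Bcl3* were not called, with log2 ratios from 0.0027 to 0.14. Neither were *Relb* (0.47), *Rel* (0.44) and *Ikbkb* (-0.0075). *Tyk2*, a Janus kinase, had 11.6 and 23.5 RPM (1.01). These are transcript levels, and the phosphorylation that activates STAT3 was not measured in these files. In Western blots of gland protein from the same stage of lactation, the study reported more STAT3 and more phosphorylated STAT3 in *Igfbp7*-/- than in WT. Those extracts came from glands, not from the lineage-depleted cells sequenced here.

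Of 18 tested genes in a list of 30 other acute phase proteins, 2 were called higher (11.1%, against 21.4% of all genes) and 8 lower (44.4%, against 23%), and the median log2 ratio was -0.46. The higher genes were *C3*, the central complement component (347 and 714 RPM, log2 ratio 1.04), and *Orm2*. The lowest ratios among those that reached 10 RPM were those of *Serpina3g*, a serine protease inhibitor (71.2 and 17.4 RPM, log2 ratio -2.02), *Ptx3*, the long pentraxin (868 and 243 RPM, log2 ratio -1.83), and *Vwf*, which endothelial cells make (74.3 and 22.5 RPM, log2 ratio -1.72). *Hp*, haptoglobin, had 11.3 RPM in WT and 8.80 in *Igfbp7*-/- (-0.36) and was not called, and neither were *Mt2* (1566 and 1307 RPM, log2 ratio -0.26) and *C4b* (92.3 and 135 RPM, log2 ratio 0.55). Of 8 proteins that fall in the plasma during an acute phase response, only *Trf*, transferrin, and *Rbp4* reached 1 RPM. *Trf* had 7628 RPM in WT and 9594 in *Igfbp7*-/- (0.33), and neither gene was called.

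Of 25 tested genes in a list of 36 other epithelial and milk defense proteins, 7 were called higher and 7 lower (28% each, against 21.4% and 23% of all genes), with a median log2 ratio of -0.099. *Ltf*, lactoferrin, an iron-binding milk protein, had 369 RPM in WT and 1712 in *Igfbp7*-/- (log2 ratio 2.21), close to the ratio of *Saa2*. The membrane mucins *Muc4* (63.9 and 783 RPM, log2 ratio 3.61) and *Muc20* (9.73 and 35.5 RPM, log2 ratio 1.86) were also higher, whereas *Muc1* (230 and 215 RPM, log2 ratio -0.099) and *Muc15* (117 and 122 RPM, log2 ratio 0.056) were not called. On the lower side were *Wfdc12*, an antibacterial whey acidic protein family member (31.9 and 2.40 RPM, log2 ratio -3.68), *Nos2*, the inducible nitric oxide synthase (18.1 and 6.20 RPM, log2 ratio -1.53), and *Lgals3bp* (140 and 48.6 RPM, log2 ratio -1.53). The calprotectin subunits differed from each other, with *S100a8* at 17.3 and 21.2 RPM (0.29) and *S100a9* at 11.6 and 4.83 RPM (-1.24).

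Of 25 tested genes in a list of 26 other genes of lipopolysaccharide sensing, 4 were called higher (16%, against 21.4% of all genes) and 7 lower (28%, against 23%), with a median log2 ratio of 0.21. *Tlr4*, the receptor that CD14 serves, was the highest of those with at least 10 RPM (28.3 and 67.3 RPM, log2 ratio 1.25), followed by the kinase adaptor *Tab3* (16.6 and 34.4 RPM, log2 ratio 1.05) and *Tnfaip3*, which encodes the feedback inhibitor A20 (669 and 1229 RPM, log2 ratio 0.88). *Ly96*, which encodes MD-2, had 7.87 and 9.54 RPM (0.28). The lowest ratios at 10 RPM or more were those of *Casp4*, the intracellular lipopolysaccharide sensor (86.0 and 42.4 RPM, log2 ratio -1.02), and *Myd88*, the adaptor of most Toll-like receptors (88.7 and 45.0 RPM, log2 ratio -0.98). Below 10 RPM, *Ly86* (6.23 and 0.571 RPM, log2 ratio -3.24) and *Cd180* (8.71 and 1.20 RPM, log2 ratio -2.76), which together form a TLR4-like receptor complex of B cells, and *Tlr1* (2.53 and 1.23 RPM, log2 ratio -0.99) were lower.

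Of 24 tested genes in a list of 28 receptors and partners of the 10 proteins, 5 were called higher (20.8%, against 21.4% of all genes) and 8 lower (33.3%, against 23%), with a median log2 ratio of -0.20. *Eng* (167 and 58.7 RPM, log2 ratio -1.51) and *Acvrl1* (68.8 and 27.7 RPM, log2 ratio -1.31), TGF-β receptors of endothelial cells through which LRG1 acts, were lower, as were the endothelial markers *Pecam1* (323 and 88.9 RPM, log2 ratio -1.86) and *Cdh5* (584 and 184 RPM, log2 ratio -1.67). *Tgfbr1* was higher (74.8 and 140 RPM, log2 ratio 0.90), and *Tgfbr2* was not called (302 and 368 RPM, log2 ratio 0.28). *Heph*, the membrane-bound relative of ceruloplasmin, was lower (12.4 and 6.05 RPM, log2 ratio -1.03), and *Slc40a1*, the iron exporter that both serve, was higher at a low level (3.23 and 5.57 RPM, log2 ratio 0.77). *Slc22a17*, a lipocalin 2 receptor, had 3.20 and 2.17 RPM (-0.54) and was not called. The iron store gene *Fth1* had 2598 and 3735 RPM (0.52).

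**Figure D4:**
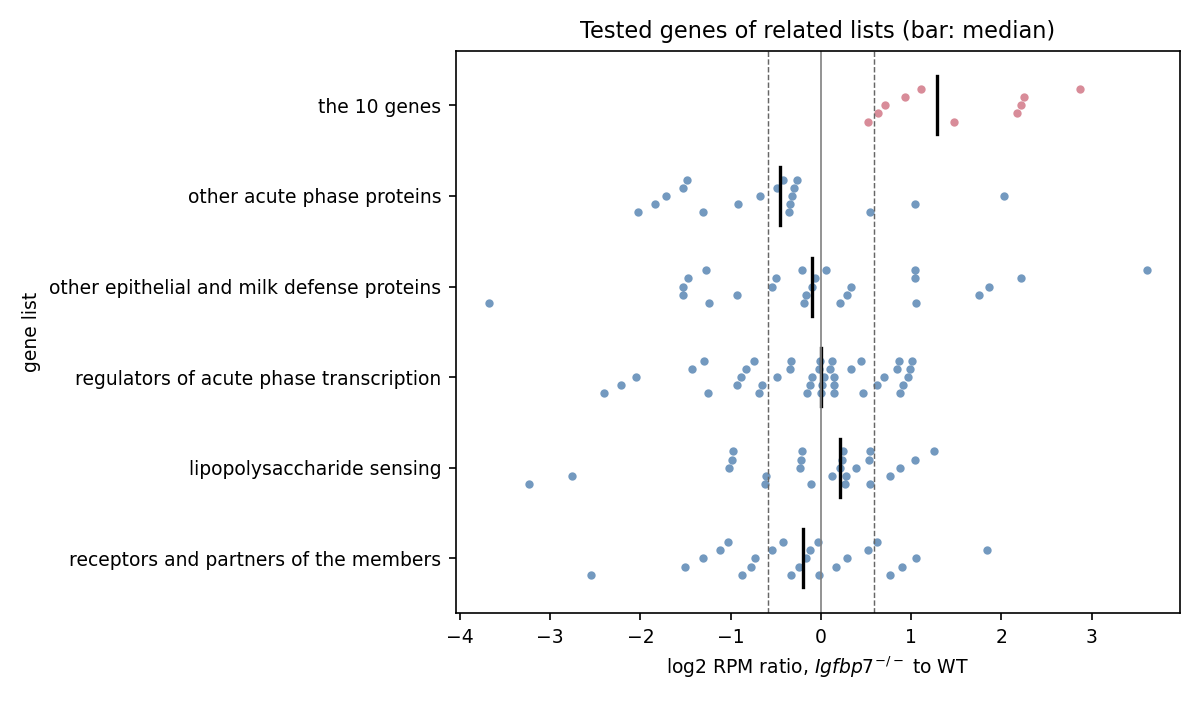
Log2 ratio of *Igfbp7*-/- to WT for every tested gene of the 10-gene set (red) and of 5 related lists (blue), with the median of each as a black bar and dashed lines at 1.5 times in either direction. The 10-gene set has its median at 1.29, and the medians of the other lists lie between -0.46 and 0.21.

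Markers of the cell types in the preparation also differed between the libraries. The luminal keratins were higher in *Igfbp7*-/-, *Krt8* with 268 RPM in WT and 789 in *Igfbp7*-/- (log2 ratio 1.56) and *Krt18* with 250 and 1174 RPM (2.23), and *Epcam* had 338 and 482 RPM (0.51). The milk protein gene *Csn2* was lower, with 53087 and 19970 RPM (-1.41), and so were *Wap* (-1.83) and *Lalba* (-1.08). Of 9 tested luminal and alveolar markers, 4 were called higher and 3 lower (44.4% and 33.3%, against 21.4% and 23% of all genes). With the milk protein genes included, this list summed to 68341 RPM in WT and 26955 in *Igfbp7*-/-. Relative to *Epcam*, 6 of the 10 genes were at least 1.5 times higher, against 7.84% of all genes. Relative to the mean of *Krt8* and *Krt18*, 1 was higher (*Saa1*) and 5 were lower (*Lcn2*, *Cd14*, *Lbp*, *Chi3l1* and *Cp*), against 0.763% and 94.8% of all genes, so the direction depends on the epithelial gene taken as a reference. Of the 5 tested luminal progenitor markers other than *Cd14* and *Lbp*, 2 were called higher and 1 lower, against 21.4% and 23% of all genes. *Aldh1a3* was higher (6.67 and 34.5 RPM, log2 ratio 2.35) and *Tspan8* lower (6.38 and 2.11 RPM, log2 ratio -1.55), and *Elf5* (-0.52) was not called. Of 7 tested basal markers, 6 were lower, among them *Cnn1* (143 and 18.6 RPM, log2 ratio -2.93).

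Leukocytes and liver cells, which also make these proteins, were checked by their own markers. Of 12 tested macrophage markers, 8 were lower and none higher in *Igfbp7*-/-, with a summed level of 250 RPM in WT and 127 in *Igfbp7*-/-. Of 12 neutrophil markers, 8 were tested, 5 of them were lower and only *Ltf*, which epithelium also makes, was higher. The list summed to 425 and 1753 RPM with *Ltf* and to 55.9 and 41.6 RPM without it, and *Ly6g* had 0 reads in WT and 1 read in *Igfbp7*-/-. The hepatocyte genes *Alb*, *Ttr*, *Apob* and *Fgb* had 0 reads in both libraries, and the 10 hepatocyte markers summed to 6.90 and 1.68 RPM. Endothelial (1103 and 362 RPM), fibroblast (9135 and 4683 RPM), adipocyte (639 and 250 RPM), B and plasma cell (36.8 and 3.17 RPM) and T and NK cell markers (28.4 and 11.9 RPM) were likewise lower in sum. Of those tested, 5 of 6 endothelial, 4 of 8 fibroblast and 4 of 7 adipocyte markers were called lower, against 23% of all genes. So were 5 of 5 B and plasma cell and 2 of 5 T and NK cell markers. *Fbln1* (fibroblast), *Lep* (adipocyte) and *Cd2* (T and NK cell) were called higher. Much of the fibroblast sum came from *Col3a1* (4670 and 1950 RPM) and most of the adipocyte sum from *Fabp4* (543 and 173 RPM). *Ptprc*, which encodes the depleted antigen CD45 and was added after its values were seen, had 43.5 and 18.1 RPM, so depleted lineages were not absent from either library. The part of cell composition in the ratios of the 10 genes was not tested.

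**Figure D5:**
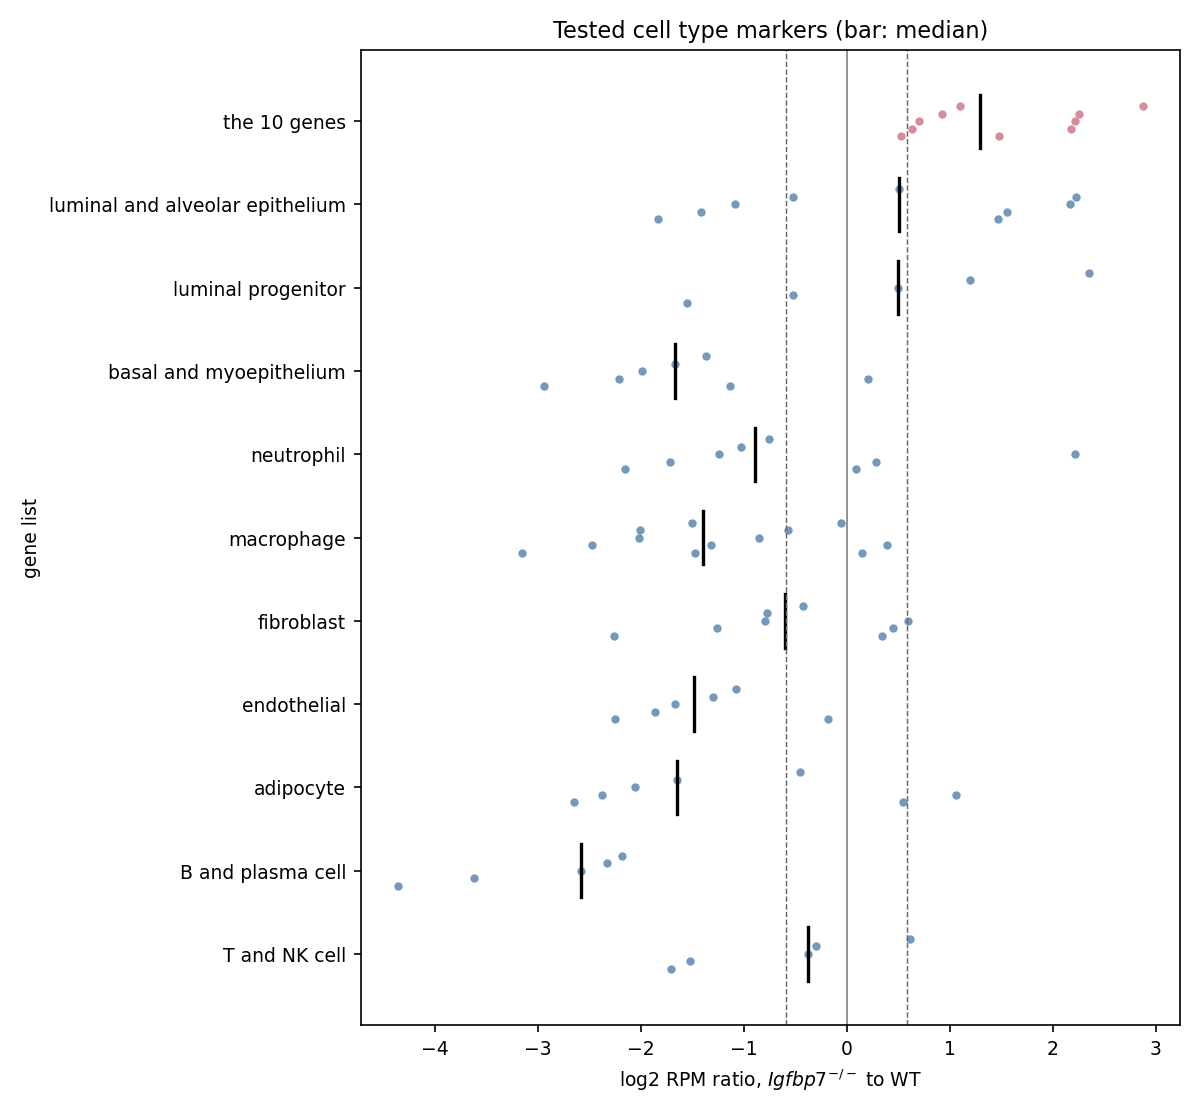
Log2 ratio of *Igfbp7*-/- to WT for every tested marker of 10 cell type lists (blue) beside the 10 genes (red), with the median of each as a black bar and dashed lines at 1.5 times. *Cd14* and *Lbp* are left out of the luminal progenitor list. The medians of both luminal lists lie above 0, and those of the basal, leukocyte, fibroblast, endothelial and adipocyte lists below 0. The luminal and alveolar list was divided, with 4 markers called higher and 3 lower. Hepatocyte markers are not plotted.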

How the data were processed

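Poly(A) RNA of lineage-depleted MECs was sequenced as paired-end reads of 35 and 75 bp on a SOLiD sequencer. The authors mapped the reads with a Bowtie-based pipeline in GeneSifter, allowed at most 3 mismatches and removed reads of mitochondrial, ribosomal and small nuclear RNA, per the methods. The deposited files still held rRNA rows, with 2.95% and 3.15% of mapped reads. The submitters' processing notes name mm9, Bowtie 0.12.3 and SAMtools 0.1.15, whereas the methods name a human build. How reads with several possible genes were counted was not given in the sources used here. The authors deposited raw counts per gene. The deposited RPM is the count scaled to a fixed total per library, which includes reads outside the listed genes. The deposited RPKM is that RPM divided by a transcript length.

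Of 25860 rows, 50 without a symbol (0.0495% of listed reads in WT, 0.0670% in *Igfbp7*-/-) were left out. Genes that reached 1 RPM in either library were tested, and all 10 passed. Counting intervals were computed on read pairs, because 75.8% and 74.1% of counts from 1 to 20 were even. A single read corresponded to 0.0291 RPM (WT) or 0.0286 RPM (*Igfbp7*-/-). The files were matched to the NCBIM37 annotation by symbol, and the chromosomes were the same for all 10 genes. Protein identity was not analysed here, and coding bases were compared instead. The genes and lists were chosen with earlier results of these data known. Named from each list were the genes with the 3 highest and 3 lowest ratios that reached 10 RPM, and genes listed by role, although not all are printed. *Cebpa*, *Nfkb1*, *Nfkb2*, *Rela*, *Relb*, *Rel*, *Nfkbia*, *Bcl3*, *Chuk*, *Ikbkb*, *Ikbkg*, *Muc1*, *Muc15*, *Ly86*, *Cd180* and *Tlr1* were named after their values were seen. *Il1a*, *Tnf*, *Osm*, *Il11*, *Saa4*, *Orm2*, *Orm3* and *Rbp4* were also named outside these rules. The calculations were tested on simulated counts. Python 3.11.15, scipy 1.17.1, Biopython 1.88, R 4.3.3, and, for scaling only, edgeR 4.0.16 and DESeq2 1.42.0 were used.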

Additional observations from a re-analysis of the deposited data

How the results depend on the processing

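With 1 library per genotype no replicate could be left out. No paired analysis was possible because each genotype had 1 library and no test was made. Across 12 alternatives in pseudocount, unit, minimum, scaling and threshold, the number of the 10 genes called higher was 9, or 6 with a ratio of 2, and none was called lower. *Cd14* stayed below 1.5 times in each of them. Of 134 tested genes in the related lists, 27 were higher and 42 lower at 1.5 times, against 21.4% and 23% of all genes. A ratio of 2 left 14 higher and 26 lower in these lists, and 9.64% of all genes higher. The other 4 alternatives were added after the data were seen. Scaling to listed reads, a smaller share in *Igfbp7*-/-, without rRNA, snRNA and snoRNA, moved the median of all genes to 0.24 and that of the 10 genes to 1.49, and all 10 were then called higher. In that scaling 31.2% of all genes were called higher. Scaling without casein and *Wap* genes kept the count at 9. Relative to *Epcam*, the median was 0.78 for the 10 genes and -0.48 for all genes. Of the 134 genes of the related lists, 7 were then higher and 71 lower, against 1099 and 6200 of all 14026 genes. Relative to *Krt8* and *Krt18*, the median was -0.60 for the 10 genes and -1.86 for all genes. Of the 10 genes, 1 was then higher and 5 lower. Of the 134 genes of the related lists, 1 was higher and 128 lower, against 0.763% and 94.8% of all genes. The values there were -1.36 for *Cd14*, -1.26 for *Lcn2*, -1.19 for *Lbp*, -0.96 for *Chi3l1*, -0.79 for *Cp* and -0.41 for *Orm1*. These follow from the higher keratin values, and no change per cell can be read from them. The depth of the libraries was not limiting for the 10 genes, the lowest count being 385 reads.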
